A study of Mus musculus with 12 samples.

Results

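The Hox genes described here were the 39 gene symbols, of 35976 in the count files, made of Hox, a cluster letter from a to d and a number, and all 39 were present in each of the 12 libraries. They comprised 11 Hoxa genes on chromosome 6 (105.3 kb), 10 Hoxb genes on chromosome 11 (96194316 to 96368256, 173.9 kb), 9 Hoxc genes on chromosome 15 (102921103 to 103036852, 115.8 kb) and 9 Hoxd genes on chromosome 2 (74668310 to 74765142, 96.8 kb), in mm10 coordinates of GENCODE M21. RNA-seq was performed on testes of outbred Swiss (RjOrl) mouse embryos at E15.5, in F1 control, F1 *thia*, F3 control and F3 *thia* groups of 3 libraries. Each library was made from the pooled testes of 3 embryos, so a value is that of a pool and not of an animal. Thiacloprid (*thia*), a neonicotinoid insecticide, was given by gavage to pregnant F0 females at 6 mg/kg/day from E6.5 to E15.5, and controls received the vehicle (0 mg/kg/day). F1 embryos were exposed in the womb, whereas F3 was obtained by crossing F1 and then F2 males with unexposed and unrelated females, so that F3 embryos descended from exposed mice without being exposed themselves.

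Hox genes encode homeodomain transcription factors that give cells their position along the body axis. Within each cluster the genes lie in the order of their paralogue groups, and genes at the end with low numbers are switched on earlier and further towards the head than those at the other end. The gonad arises in the urogenital ridge, at the level of the trunk, beside the mesonephros. Polycomb complexes keep Hox genes silent where they are not used, Trithorax proteins keep them active, and retinoic acid and Cdx factors act upstream of them. PBX and MEIS proteins bind DNA together with Hox proteins.

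The total count per library ran from 25081647 to 68996146, of which Hox genes took 0.0305 to 0.0422%. The testis markers *Sox9* (13.7 to 53.9 CPM, the count scaled to a common library size with TMM factors) and *Amh* (171 to 928 CPM) of Sertoli cells, *Ddx4* of germ cells (56.3 to 247 CPM) and *Cyp17a1* of Leydig cells (882 to 3628 CPM) were present in every library, and *Pax2*, a gene of the mesonephric epithelium, was at 1.06 to 2.24 CPM. No 2 replicates had identical counts. F1 *thia* replicate 2 stood apart by its skeletal muscle markers, 7 genes that summed to 502 CPM there and to 35.7 to 88.2 CPM in the other F1 libraries. All F3 libraries held more RNA of the 4 blood markers (18240 to 36250 CPM) than F1 libraries (1880 to 7736 CPM). Values of a gene are given below for replicates 1, 2 and 3 in that order.

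The sequence upstream of the start site is shown for 4 genes that the results turn on. These are *Hoxd9*, the most abundant member, *Hoxd12* and *Hoxd13*, near-silent genes of the same cluster, and *Hoxb8*, the member with the smallest p in F1. Each is the 250 bases before the RefSeq start site in GRCm38.p6, on the plus strand, 5′ to 3′, with CpG dinucleotides in capitals.
*Hoxd9*, chr2:74697513-74697762: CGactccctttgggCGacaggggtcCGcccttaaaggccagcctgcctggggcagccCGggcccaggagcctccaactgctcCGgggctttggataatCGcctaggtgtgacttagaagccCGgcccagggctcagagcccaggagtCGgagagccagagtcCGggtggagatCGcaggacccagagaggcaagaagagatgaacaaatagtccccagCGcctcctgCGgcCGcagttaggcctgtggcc
*Hoxd12*, chr2:74674763-74675012: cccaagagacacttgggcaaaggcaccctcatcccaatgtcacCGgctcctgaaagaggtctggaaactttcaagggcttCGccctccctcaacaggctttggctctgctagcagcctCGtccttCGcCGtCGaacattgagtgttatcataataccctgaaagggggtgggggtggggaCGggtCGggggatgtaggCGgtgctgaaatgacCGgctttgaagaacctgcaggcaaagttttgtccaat
*Hoxd13*, chr2:74667975-74668224: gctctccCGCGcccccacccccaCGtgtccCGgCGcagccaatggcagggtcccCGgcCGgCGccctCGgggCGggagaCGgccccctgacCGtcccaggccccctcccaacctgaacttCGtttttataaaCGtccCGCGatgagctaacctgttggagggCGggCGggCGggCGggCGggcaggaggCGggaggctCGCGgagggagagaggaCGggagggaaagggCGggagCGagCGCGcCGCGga
*Hoxb8*, chr11:96281655-96281904: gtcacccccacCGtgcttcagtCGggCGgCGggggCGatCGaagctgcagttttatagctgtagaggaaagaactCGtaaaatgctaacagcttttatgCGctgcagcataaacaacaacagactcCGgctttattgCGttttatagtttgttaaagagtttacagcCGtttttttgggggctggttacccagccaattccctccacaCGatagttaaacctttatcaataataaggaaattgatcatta
The *Hoxd9* stretch holds 13 CpG, that of *Hoxd12* 10, that of *Hoxd13* 31 and that of *Hoxb8* 12. RefSeq promoter windows, which run from 250 bases before to 50 bases after a start site, were found for 22 of the 39 genes (24 windows). Over whole windows the Hox genes had a median of 14.5 CpG with a range from 4 to 45, against a median of 7 over all 32851 windows. AGGTCA, the half-site bound by retinoic acid receptors, was present on either strand in 7 of the 24 Hox windows (29.2%, against 16.3% of all windows), those of *Hoxa5*, *Hoxb4*, *Hoxc4*, *Hoxd3*, *Hoxd4*, *Hoxd8* and *Hoxd10*. The letters CCAAT, on either strand, were in 15 of the 24 (62.5%, against 37.4% of all windows). The other motifs searched were GGGCGG, the GC box (10 of 24, 41.7% against 35.7%), and TATAAA, the TATA box (4 of 24, 16.7% against 13.6%). TGATTNAT, a site of Pbx with Hox proteins, was in 2 of 24 (8.33% against 3.22%). A match is a description of the sequence and not evidence of binding.

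The E15.5 testis expressed few Hox genes at a high level, and these were Hoxd and Hoxc genes of the central and posterior groups. To compare genes, the CPM was divided by the exon length in kb, and this level is used for every comparison between genes. *Hoxd9* had the highest level, 43.4 CPM per kb on average over 12 libraries, which was 25.7% of the summed level of the 39 genes. It was followed by *Hoxd8* (21.1), *Hoxc6* (21.0), *Hoxc8* (18.3) and *Hoxd10* (16.7 CPM per kb), and these 5 genes held 65.4 to 75.9% of the Hox level of a library. At the other end, 20 genes were under 1 CPM per kb. The lowest were *Hoxc11* (0.0177), *Hoxd12* (0.0437), *Hoxa13* (0.0721) and *Hoxc12* (0.0848 CPM per kb). Of the 38 pairs of neighbours in this order, only 2 were in the same order in all 12 libraries with ranges that did not overlap, *Hoxd9* above *Hoxd8* and *Hoxd10* above *Hoxc4*. Among the 4 genes that followed *Hoxd9*, each neighbouring pair was in order in 6 or 7 of 12 libraries, although *Hoxd8* was above *Hoxd10* in all 12. The order over the 39 genes was similar between groups, with Spearman's rho of 0.97 to 0.99 across genes, which are not independent.

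**Figure D1:**
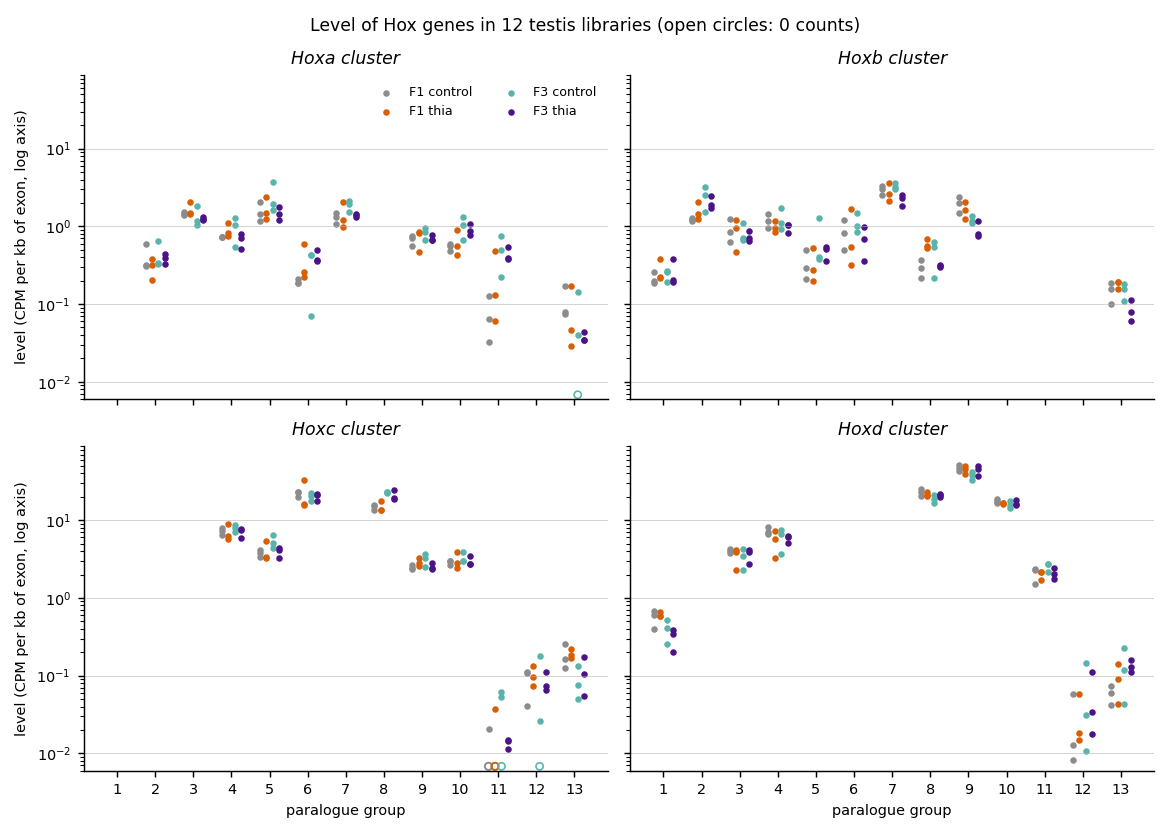
Level of Hox genes (CPM per kb of exon, log axis) against paralogue group, with a panel per cluster and a point per library coloured by group. The Hoxd points climb to *Hoxd9* at 43.4 CPM per kb on average and drop at *Hoxd12*, the Hoxc points drop at *Hoxc11*, and Hoxa and Hoxb genes stay below 4 CPM per kb. Open circles at the bottom mark libraries with 0 counts.

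In the Hoxd cluster, the level climbed from *Hoxd1* (0.470 CPM per kb) through *Hoxd3* (3.58), *Hoxd4* (6.13) and *Hoxd8* to *Hoxd9*, and then declined through *Hoxd10* to *Hoxd11* (2.17). *Hoxd9*, *Hoxd10* and *Hoxd11* pattern the lumbar and sacral axis and the limb. *Hoxd9* was at 109, 92.8 and 101 CPM in F1 control, 85.0, 107 and 96.5 in F1 *thia*, 71.2, 87.9 and 81.9 in F3 control and 78.6, 96.6 and 106 in F3 *thia*. *Hoxd8* was at 62.8, 56.2 and 69.8 CPM in F1 control, 56.8, 57.9 and 63.0 in F1 *thia*, 46.3, 58.2 and 51.7 in F3 control and 55.0, 57.8 and 59.8 in F3 *thia*. *Hoxd10* was at 34.5, 30.5 and 32.2 CPM in F1 control, 29.2, 30.6 and 29.9 in F1 *thia*, 28.7, 32.4 and 25.7 in F3 control and 28.5, 29.6 and 33.1 in F3 *thia*. Both *Hoxd9* and *Hoxd8* were lowest in F3 control replicate 1, whereas *Hoxd10* varied little and the 4 groups overlapped. The sharpest step in this cluster lay between *Hoxd11* and *Hoxd12*, whose mean levels differed 49.6-fold, and *Hoxd12* had 58 counts in all (exact 95% Poisson interval 44.0 to 75.0, which covers counting error only, as do the other intervals and floors of counts given here). *Hoxd13*, a gene of the digits and the external genitalia, was above *Hoxd12* in all 12 libraries, at 0.102 CPM per kb.

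The Hoxc cluster also had a peak and then a drop, with the peak further forward, at *Hoxc6* and *Hoxc8*, which act in the thoracic region. *Hoxc6* was at 36.7, 31.7 and 36.9 CPM in F1 control, 51.3, 25.5 and 24.7 in F1 *thia*, 28.3, 35.2 and 32.0 in F3 control and 28.4, 33.5 and 34.2 in F3 *thia*. *Hoxc8* was at 29.2, 25.0 and 28.3 CPM in F1 control, 32.7, 25.4 and 25.5 in F1 *thia*, 42.3, 42.7 and 43.2 in F3 control and 35.2, 45.4 and 36.3 in F3 *thia*. *Hoxc4* was at 15.6, 12.6 and 14.5 CPM in F1 control, 17.8, 12.4 and 11.4 in F1 *thia*, 13.9, 15.7 and 17.1 in F3 control and 11.7, 14.6 and 15.4 in F3 *thia*. *Hoxc6* was highest in F1 *thia* replicate 1, and every F3 library had more *Hoxc8* RNA than every F1 library, while *Hoxc4* overlapped between all groups. *Hoxc5* (4.24), *Hoxc9* (2.75) and *Hoxc10* (3.04 CPM per kb) stood between. The climb was not steady, since *Hoxc5* was below *Hoxc4* (7.25 CPM per kb) in all 12 libraries. *Hoxc11* lay 172-fold below *Hoxc10*, with 17 counts in 12 libraries (exact 95% Poisson interval 9.90 to 27.2) and 0 in 5 of them, which allowed up to 3 counts, or 0.0478 to 0.120 CPM, in such a library. *Hoxc12* and *Hoxc13*, a gene of hair and nails, were at 0.0848 and 0.143 CPM per kb.

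Hoxa and Hoxb genes were lower and flatter. *Hoxb7* led its cluster at 2.82 CPM per kb, followed by *Hoxb2* (1.82) and *Hoxb9* (1.43), and the Hoxa cluster was led by *Hoxa5* (1.80), *Hoxa7* (1.49) and *Hoxa3* (1.44). *Hoxb2* acts in the hindbrain, *Hoxa3* in the thymus and parathyroid, and *Hoxa5* in the lung. *Hoxb2* was at 1.99, 2.099 and 1.93 CPM in F1 control, 3.37, 2.01 and 2.36 in F1 *thia*, 4.12, 2.48 and 5.23 in F3 control and 2.77, 4.06 and 3.07 in F3 *thia*. *Hoxa3* was at 3.68, 3.79 and 4.002 CPM in F1 control, 5.28, 3.84 and 3.77 in F1 *thia*, 2.67, 3.05 and 4.75 in F3 control and 3.16, 3.25 and 3.399 in F3 *thia*. *Hoxa3* overlapped between *thia* and control in both generations but was lower in each F3 *thia* library than in all F1 libraries, while *Hoxb2* was above every F1 control library in each F3 library. *Hoxb13*, a gene of the prostate, lay 10.15-fold below *Hoxb9*, and *Hoxa13* lay 4.26-fold below *Hoxa11* on average over 12 libraries, with 47 counts in all. In F1 control the order of the means was the other way (0.0745 CPM per kb for *Hoxa11* and 0.108 for *Hoxa13*), and *Hoxa11* was above *Hoxa13* in 10 of 12 libraries. The distal ends of the Hoxb and Hoxa clusters were thus low as well, without the single large step of Hoxd and Hoxc.

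Summed over its genes, the Hoxd cluster held 55.6% of the Hox level, Hoxc 33.6%, Hoxb 5.98% and Hoxa 4.90%. Anterior genes (groups 1 to 3, 8 genes) held 5.28%, central genes (groups 4 to 8, 15 genes) 52.1% and posterior genes (groups 9 to 13, 16 genes) 42.7%. The summed level was 172.8 ± 13.7 CPM per kb (SD, n = 3) in F1 control, 166.4 ± 17.4 in F1 *thia*, 169.2 ± 11.3 in F3 control and 167.7 ± 15.8 in F3 *thia*, so the groups differed by less than their spread. The Hoxd share was 58.8, 59.8 and 58.6% in F1 control, 49.1, 61.2 and 61.7% in F1 *thia*, 48.4, 54.1 and 47.9% in F3 control and 55.3, 54.7 and 57.2% in F3 *thia*. All F3 control libraries were below all F1 control libraries in this share, and the *thia* libraries of F3 lay between the control groups. The Hoxc share ran the other way, at 30.7 to 31.1% in F1 control and 36.2 to 38.6% in F3 control. In bulk RNA a smaller share of the cells that express a gene and less RNA of it per cell cannot be told apart, here and in every comparison that follows.

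**Figure D2:**
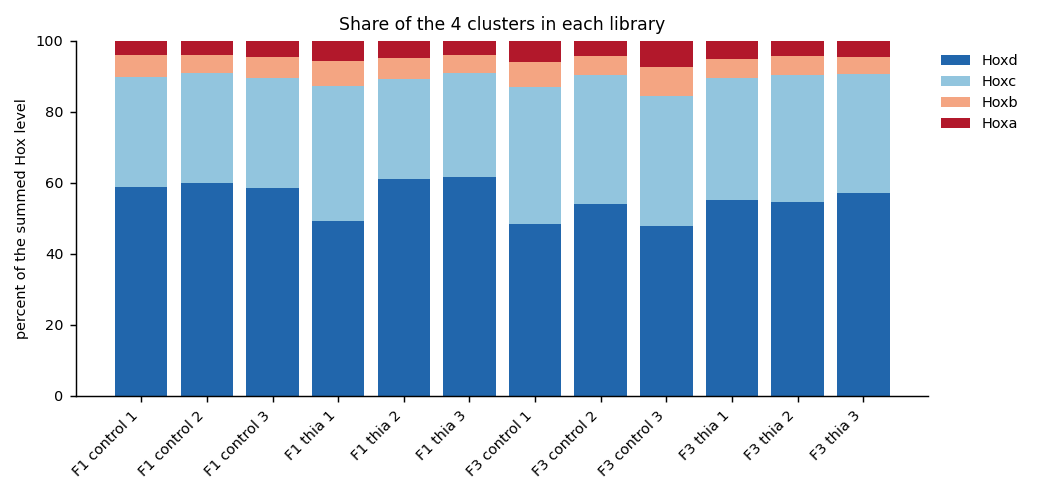
Stacked bars give the percent of the summed Hox level (CPM per kb) held by each cluster, with a bar per library. Hoxd holds 47.9 to 61.7% and Hoxc 28.1 to 38.6%, and F1 *thia* replicate 1 and F3 control replicates 1 and 3 have the smallest Hoxd bars.

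By paralogue group, Hoxd genes led in 6 of 13 groups, Hoxc genes in 5 and Hoxb genes in 2, and no Hoxa gene had the highest mean of its group. Group 9 held 28.6% of the Hox level, group 8 23.6%, group 6 13.04%, group 10 12.2% and group 4 9.01%. Within group 9, *Hoxd9* held 85.5 to 92.2% of the level of a library, so *Hoxa9*, *Hoxb9* and *Hoxc9* contributed little. *Hoxc6* held 91.3 to 96.7% of group 6, and *Hoxd10* held 75.4 to 85.5% of group 10. Group 8 was divided between *Hoxd8* and *Hoxc8*, with *Hoxd8* ahead in 8 of 12 libraries, and group 4 between *Hoxc4* (7.25 CPM per kb) and *Hoxd4* (6.13 CPM per kb), with *Hoxc4* ahead of the others in 10 of 12. Group 13 had no clear leader, since *Hoxc13* had the highest mean but was the highest in only 3 of 12 libraries.

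Paralogues of a group could differ widely in level. In group 6, *Hoxa6* was at 0.166, 0.164 and 0.185 CPM in F1 control, 0.524, 0.223 and 0.198 in F1 *thia*, 0.0620, 0.377 and 0.372 in F3 control and 0.318, 0.316 and 0.434 in F3 *thia*. *Hoxb6* was at 1.08, 0.656 and 1.59 CPM in F1 control, 2.19, 0.719 and 0.426 in F1 *thia*, 1.12, 1.35 and 1.99 in F3 control and 0.477, 1.29 and 0.913 in F3 *thia*. *Hoxa6* and *Hoxb6* were both highest in F1 *thia* replicate 1 within F1, the library with the most *Hoxc6*. In group 11, *Hoxd11* was at 9.81, 6.35 and 9.71 CPM in F1 control, 9.02, 8.996 and 7.21 in F1 *thia*, 11.6, 11.6 and 9.06 in F3 control and 7.41, 10.2 and 8.48 in F3 *thia*. *Hoxd11* overlapped between *thia* and control in both generations and held 77.3 to 98.6% of its group. *Hoxc11* was at 0.0414, 0 and 0 CPM in F1 control, 0, 0.0743 and 0 in F1 *thia*, 0.124, 0.108 and 0 in F3 control and 0.0227, 0.0288 and 0.0300 in F3 *thia*. These values were at most 4 counts per library, and 5 of the 12 libraries held none. Group 13 was at or near the detection floor in places. *Hoxa13* was at 0.103, 0.0984 and 0.222 CPM in F1 control, 0.0374, 0.223 and 0.0609 in F1 *thia*, 0.186, 0 and 0.0531 in F3 control and 0.0454, 0.0575 and 0.0449 in F3 *thia*. *Hoxc13* was at 0.621, 0.312 and 0.408 CPM in F1 control, 0.412, 0.545 and 0.457 in F1 *thia*, 0.124, 0.323 and 0.186 in F3 control and 0.136, 0.431 and 0.255 in F3 *thia*. *Hoxd13* was at 0.103, 0.180 and 0.148 CPM in F1 control, 0.225, 0.347 and 0.107 in F1 *thia*, 0.558, 0.108 and 0.292 in F3 control and 0.273, 0.316 and 0.389 in F3 *thia*. *Hoxd13* and *Hoxd12* (0.372 CPM) were highest in F3 control replicate 1, and *Hoxd13* second in F3 *thia* replicate 3.

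No Hox gene was called in F1 *thia* testis. *Hoxb8* had the smallest p of the members and was higher in all *thia* pools, while the abundant Hoxd and Hoxc genes differed little from control. The comparison asks whether exposure in the womb altered Hox expression, and used edgeR's quasi-likelihood test on all genes that passed its low-count filter, with an FDR of 0.15, so that 33 members were tested and *Hoxa6*, *Hoxa13*, *Hoxc11*, *Hoxc12*, *Hoxd12* and *Hoxd13* were not. Replicates are separate pools, and the p-values measure the spread between pools. Fold changes are given on the log2 scale (log2FC) with their standard error (SE), and FDR is the Benjamini-Hochberg adjusted p of edgeR over all genes tested. The call rate over all genes was 0.0105%, so 0 calls among 33 members is not a result about the members. At an unadjusted p under 0.05, 1 member was higher and 0 were lower, where 4.63% of all genes were higher and 4.13% lower. The member count at that p was 3 without F1 *thia* replicate 1 (8.82%, against 9.55% of all genes) or replicate 3 (8.33%, against 5.15%). It was 2 without F1 *thia* replicate 2 (5.88%, against 7.94%). The pools of the groups did not overlap for 2 of the members tested, both higher in *thia* (6.55% of all genes were so higher and 8.45% so lower). The same was true of *Hoxa6*, which was not tested. DESeq2 also called 0 members, and its call rate over all genes was 1.01%. The log2FC of *thia* over control had a median of 0.06, against 0.01 over all genes tested, with 19 members above 0 and 14 below. With single libraries left out this median was -0.08 to 0.21, so its sign depended on single pools. Members were measured in the same pools and are not independent, so counts of direction, here and below, do not measure replication. Of the markers of other cells, 4 of 6 germ cell markers were lower, and 3 of 9 markers of mesonephric epithelium and 3 of 7 of skeletal muscle were higher at an unadjusted p under 0.05 in F1 *thia*, none of them called. At that p 3 of 5 kidney and adrenal markers and 1 of 7 Sertoli markers were lower and 1 of 3 ovary markers was higher. Their part in the Hox values was not tested.

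*Hoxb8* was at 0.972, 0.574 and 0.778 CPM in F1 control, 1.83, 1.46 and 1.37 in F1 *thia*, 1.43, 0.566 and 1.65 in F3 control and 0.795, 0.834 and 0.824 in F3 *thia*. Its *thia* pools in F1 were all above its F1 control pools, with a log2FC of 1.03 (SE 0.27, FDR 0.446) and a 95% interval of 0.42 to 1.63. With single libraries left out the log2FC was 0.83 to 1.24. *Hoxb8* is a trunk gene that is also known from blood progenitors. The summed blood markers, in which globin genes weigh most, were at 1880 to 6463 CPM in F1 control and 3036 to 7736 CPM in F1 *thia*. The part of blood cells in the *Hoxb8* values was not tested. *Hoxa4*, the other member tested whose F1 groups did not overlap, was at 1.16, 1.15 and 1.15 CPM in F1 control, 1.74, 1.19 and 1.31 in F1 *thia*, 1.64, 0.863 and 2.05 in F3 control and 1.27, 1.12 and 0.824 in F3 *thia*. Its F1 control values were nearly equal (SD 0.00586 CPM), and the log2FC was 0.31 (SE 0.24, FDR 0.687).

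For *Hoxa11* and *Hoxd4* the F1 difference rested on a single library. *Hoxa11*, required with *Hoxa10* in the reproductive tract, was at 0.290, 0.148 and 0.0741 CPM in F1 control, 0.299, 1.12 and 0.137 in F1 *thia*, 1.71, 0.512 and 1.14 in F3 control and 0.886, 0.863 and 1.26 in F3 *thia*. In F1 it was high in *thia* replicate 2 and low in the other 5 libraries, and its log2FC of 1.45 (SE 0.74, FDR 0.595) became 0.27 without that replicate. *Hoxd4* was at 16.8, 18.3 and 21.2 CPM in F1 control, 18.3, 14.7 and 8.43 in F1 *thia*, 9.52, 19.4 and 16.9 in F3 control and 13.1, 16.1 and 15.6 in F3 *thia*. In F1 it was low in *thia* replicate 3, and the log2FC of -0.43 (SE 0.23, FDR 0.609) became -0.17 without it. *Hoxc9* was at 5.73, 5.56 and 6.23 CPM in F1 control, 7.69, 6.69 and 6.10 in F1 *thia*, 8.65, 7.66 and 5.95 in F3 control and 5.75, 5.55 and 6.77 in F3 *thia*. Its F1 groups overlapped, as did those of *Hoxb2*, with log2FC of 0.24 (SE 0.15, FDR 0.643) and 0.38 (SE 0.23, FDR 0.638).

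For the abundant genes the intervals were narrow. The 95% interval of the F1 log2FC was -0.29 to 0.18 for *Hoxd9*, -0.30 to 0.16 for *Hoxd8*, -0.31 to 0.11 for *Hoxd10* and -0.24 to 0.31 for *Hoxc8*. It was -0.57 to 0.50 for *Hoxc6*, whose *thia* pools were spread from 24.7 to 51.3 CPM. For 27 of the 33 members tested, the interval lay within 1 log2 unit of 0 on both sides. By cluster, 7 of 9 Hoxa, 6 of 10 Hoxb, 5 of 7 Hoxc and 1 of 7 Hoxd genes had a log2 fold change above 0.

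**Figure D3:**
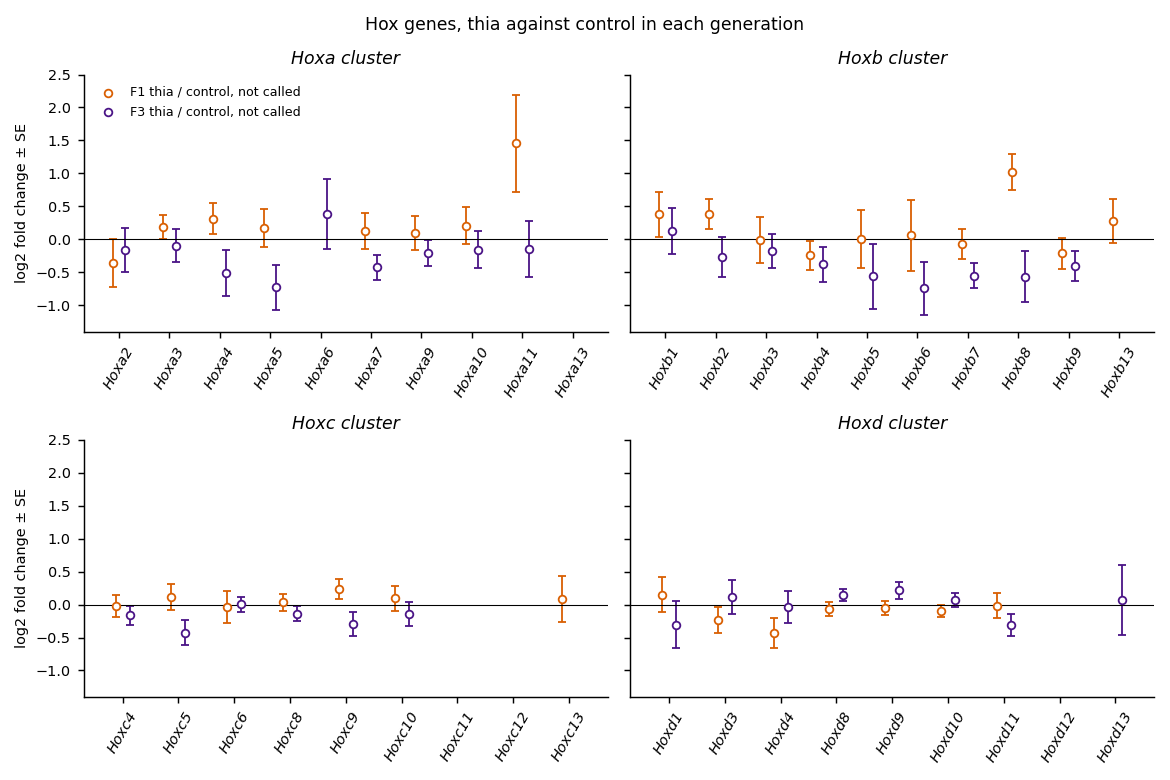
Log2 fold change of *thia* over control with its standard error (edgeR) for the Hox genes tested, in F1 (orange) and F3 (purple), with a panel per cluster. Open symbols are genes that were not called, which were all of them, and 8 of 9 Hoxb symbols of F3 lie below 0.

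In F3, whose embryos were not exposed themselves, no Hox gene was called by edgeR either, and 25 of 33 members had a log2 fold change below 0. *Hoxb7* had the smallest p. *Hoxa13*, *Hoxb13*, *Hoxc11*, *Hoxc12*, *Hoxc13* and *Hoxd12* did not pass the filter. At an FDR of 0.1 edgeR called 0% of all 18539 genes, although 2044 were higher and 1862 lower at an unadjusted p under 0.05. The smallest FDR was 0.1006, just past the threshold. Other edgeR settings called 1.94% (at least 10 counts in every library), 2.8% (upper quartile scaling) or 9.86% (a fit of 12 libraries) of all genes, and 0 members in each. At that unadjusted p, 0 members were higher and 1 was lower, where 11.0% of all genes were higher and 10.0% lower. Without F3 control replicate 2 the count of members at that p was 6 (17.1%, against 17.3% of all genes). It was 3 without F3 *thia* replicate 1 (8.33%, against 21.8%) or replicate 2 (8.33%, against 22.3%). It was 2 without F3 *thia* replicate 3 (5.71%, against 13.8%). The groups did not overlap for 3 members, *Hoxa7* and *Hoxb7* among them, all lower in *thia*, against 13.4% of all genes higher and 13.9% lower. DESeq2 called 1 member, *Hoxb7*, and 14.9% of the genes to which it gave an adjusted p, which 8 of the tested members did not get. Apart from edgeR's adjusted calls, of which there were 0 in both, the members' share with all libraries was below that of all genes by each of these rules. The median log2FC was -0.18, against 0.0044 over all genes tested. By cluster the median was -0.40 for Hoxb, with 8 of 9 genes below 0, -0.19 for Hoxa, with 9 of 10 below, and -0.15 for Hoxc, with 5 of 6 below, whereas for Hoxd it was 0.07, with 3 of 8 below. All 4 endothelial markers were higher in F3 *thia* at an unadjusted p under 0.05, and summed to 130.7 to 151.7 CPM in F3 control and 202.8 to 242.8 CPM in F3 *thia*, and the 6 fetal Leydig markers to 2237 to 3681 CPM and 3855 to 6961 CPM. At that p, 2 of 6 fetal Leydig, 2 of 7 Sertoli, 3 of 6 interstitial and 1 of 5 kidney and adrenal markers were also higher, 2 of 6 germ cell and 2 of 8 mesonephric markers were lower, and 1 of 7 skeletal muscle markers was higher and 2 lower. The part of these cells in the Hox values was not tested.

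*Hoxb7* was at 4.30, 3.23 and 3.93 CPM in F1 control, 4.74, 3.32 and 2.75 in F1 *thia*, 4.09, 3.88 and 4.73 in F3 control and 3.27, 2.39 and 3.01 in F3 *thia*. In F3 each *thia* pool lay under each control pool, with a log2FC of -0.55 (SE 0.19, FDR 0.171). The 95% interval was -1.0 to -0.10, and the adjusted p of DESeq2 was 0.0908. In F1 its log2FC was -0.07, and the F1 *thia* pools covered the whole range of the F1 controls. *Hoxa7*, its paralogue and the only other gene of group 7, was at 3.00, 2.18 and 2.67 CPM in F1 control, 4.08, 2.40 and 1.98 in F1 *thia*, 3.84, 3.07 and 4.30 in F3 control and 2.82, 2.88 and 2.68 in F3 *thia*. In F3 its *thia* pools were close together and below the controls, with a log2FC of -0.43 (SE 0.19, FDR 0.254).

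The remaining members with small p in F3 overlapped between the groups. *Hoxc5* was at 11.9, 9.69 and 11.1 CPM in F1 control, 15.8, 9.49 and 9.72 in F1 *thia*, 14.9, 12.7 and 18.7 in F3 control and 9.56, 12.2 and 12.8 in F3 *thia*. *Hoxa5* was at 2.73, 2.21 and 3.82 CPM in F1 control, 4.55, 2.80 and 2.31 in F1 *thia*, 3.66, 3.05 and 7.01 in F3 control and 2.73, 2.27 and 3.29 in F3 *thia*. In both, F3 control replicate 3 was the highest of all 12 libraries, and the F3 log2FC were -0.42 for *Hoxc5* (SE 0.19, FDR 0.246) and -0.73 for *Hoxa5* (SE 0.34, FDR 0.274). Without this replicate the values were -0.25 and -0.27. *Hoxb6* had a log2FC of -0.75 (SE 0.40, FDR 0.330), and it was low in F3 *thia* replicate 1. The intervals of the abundant genes were again narrow, -0.08 to 0.52 for *Hoxd9*, -0.08 to 0.37 for *Hoxd8*, -0.18 to 0.33 for *Hoxd10*, -0.39 to 0.12 for *Hoxc8* and -0.26 to 0.28 for *Hoxc6*. For 21 of 33 members the interval lay within 1 log2 unit of 0 on both sides.

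The effects of *thia* in F3 and F1 were compared in a fit of all 12 libraries, and no member was called at an FDR of 0.1 (35 tested, with 0.00510% of all genes called). At an unadjusted p under 0.05, 0 members had a higher and 3 a lower effect in F3, where 7.93% of all genes were higher and 6.10% lower. The number of members at that p was 5 without F3 control replicate 2 (13.5%, against 14% of all genes). It was 4 without F1 *thia* replicate 3 (11.1%, against 10.8%). It was 1 without F1 control replicate 2 (2.78%, against 13.1%) or F3 control replicate 1 (2.78%, against 9.02%). Without F3 *thia* replicate 2 it was also 1 (2.7%, against 15.6%). With all libraries the 3 were *Hoxb8* (difference of log2FC -1.58, SE 0.48, FDR 0.254), *Hoxc9* (-0.52, SE 0.23, FDR 0.333) and *Hoxb13* (-1.10, SE 0.50, FDR 0.346). *Hoxb8* combined a log2FC of 1.03 in F1 with -0.57 in F3, where its control pools were spread widely and its *thia* pools closely together. *Hoxb13* was at 0.414, 0.344 and 0.222 CPM in F1 control, 0.430, 0.347 and 0.426 in F1 *thia*, 0.341, 0.404 and 0.239 in F3 control and 0.2499, 0.173 and 0.135 in F3 *thia*. It had 173 counts in all libraries together, and its groups overlapped within each generation. The difference was below 0 for 10 of 10 Hoxb and 9 of 10 Hoxa genes, and the median over members was -0.29 against 0.02 over all genes. Genes of a cluster share their pools and are not independent, so these counts do not measure replication. In F3 control replicate 3 Hoxb held 8.3% and Hoxa 7.3% of the Hox level, the largest shares of all 12 libraries.

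More Hox genes were called between the control groups than between *thia* and control. The comparison of F3 control with F1 control asks how stable Hox levels were without *thia*, but the generation cannot be told apart from anything else that differed between the sets of libraries. Of 33 members tested, 8 were called at an FDR of 0.1, 6 higher and 2 lower in F3, while 43.2% of all genes were called, 21.3% higher and 21.9% lower. At an unadjusted p under 0.05 there were 6 higher and 4 lower members, against 22.1% and 22.7% of all genes. The members' share of calls was 24.2%, below that of all genes, but it was above it without F3 control replicate 2 (44.1% against 37.4%). These libraries also differed in their cells. All 4 blood markers and 3 of 7 skeletal muscle markers were called higher in F3 control. Called lower were 6 of 7 Sertoli, 4 of 6 germ cell, 3 of 4 endothelial, 2 of 6 fetal Leydig and 2 of 5 kidney and adrenal markers. Other lists were mixed, with 3 higher and 1 lower of 9 mesonephric, 1 higher and 3 lower of 6 interstitial, and 2 higher and 1 lower of 3 ovary markers. The part of such differences in the Hox values was not tested.

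*Hoxc8* rose most clearly, from a mean of 27.5 ± 2.21 to 42.7 ± 0.448 CPM (SD, n = 3) with a log2FC of 0.65 (SE 0.09, FDR 0.00105). *Hoxa11* rose from 0.171 ± 0.110 to 1.12 ± 0.597 CPM with a log2FC of 2.62 (SE 0.53, FDR 0.00510), which ran from 2.20 to 3.18 over the alternatives, and it had too few counts for the filter that asks for 10 in every library. *Hoxa10*, its neighbour, was at 1.78, 1.85 and 1.52 CPM in F1 control, 1.78, 2.85 and 1.34 in F1 *thia*, 4.12, 2.08 and 3.29 in F3 control and 2.41, 3.34 and 2.76 in F3 *thia*. It rose with a log2FC of 0.88 (SE 0.27, FDR 0.0281), and it was not called without F3 control replicate 1 (log2FC 0.66). *Hoxb2* rose with a log2FC of 0.99 (SE 0.27, FDR 0.0191). *Hoxc5* rose with a log2FC of 0.52 (SE 0.16, FDR 0.0341) and was not called without F1 control replicate 2 (log2FC 0.45) or without F3 control replicate 3 (0.35). *Hoxa7* rose with a log2FC of 0.53 (SE 0.21, FDR 0.0782), and this call was lost without the low-count filter, in a fit of all 12 libraries, and without F1 control replicate 2 (log2FC 0.42), F1 control replicate 3 (0.55), F3 control replicate 1 (0.52) or F3 control replicate 3 (0.41).

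The 2 genes that fell were of group 9. *Hoxb9* was at 5.09, 3.77 and 6.15 CPM in F1 control, 4.21, 5.33 and 3.24 in F1 *thia*, 3.50, 2.99 and 2.82 in F3 control and 1.95, 2.07 and 2.98 in F3 *thia*. It had a log2FC of -0.67 (SE 0.22, FDR 0.0377) and was not called without F1 control replicate 3 (log2FC -0.50). Its F3 control pools lay below its F1 control pools, whereas F1 *thia* replicate 3 was below F3 control replicate 1. *Hoxd9* had a log2FC of -0.31 (SE 0.10, FDR 0.0434), and was not called without F1 control replicate 1 (log2FC -0.25) or without F3 control replicate 1 (-0.23). The F3 control pools of *Hoxd9* (71.2 to 87.9 CPM) lay below the F1 control pools (92.8 to 109 CPM), while the F3 *thia* pools (78.6 to 106 CPM) overlapped both. Without F3 control replicate 2 the number of members called rose from 8 to 15, or 44.1% of those tested, against 37.4% of all genes, with all 8 kept and *Hoxa4*, *Hoxa5*, *Hoxb5*, *Hoxb8*, *Hoxc13*, *Hoxd8* and *Hoxd13* added. The F3 control pools also enter the F3 comparison of *thia*, so the results of both are not independent.

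**Figure D4:**
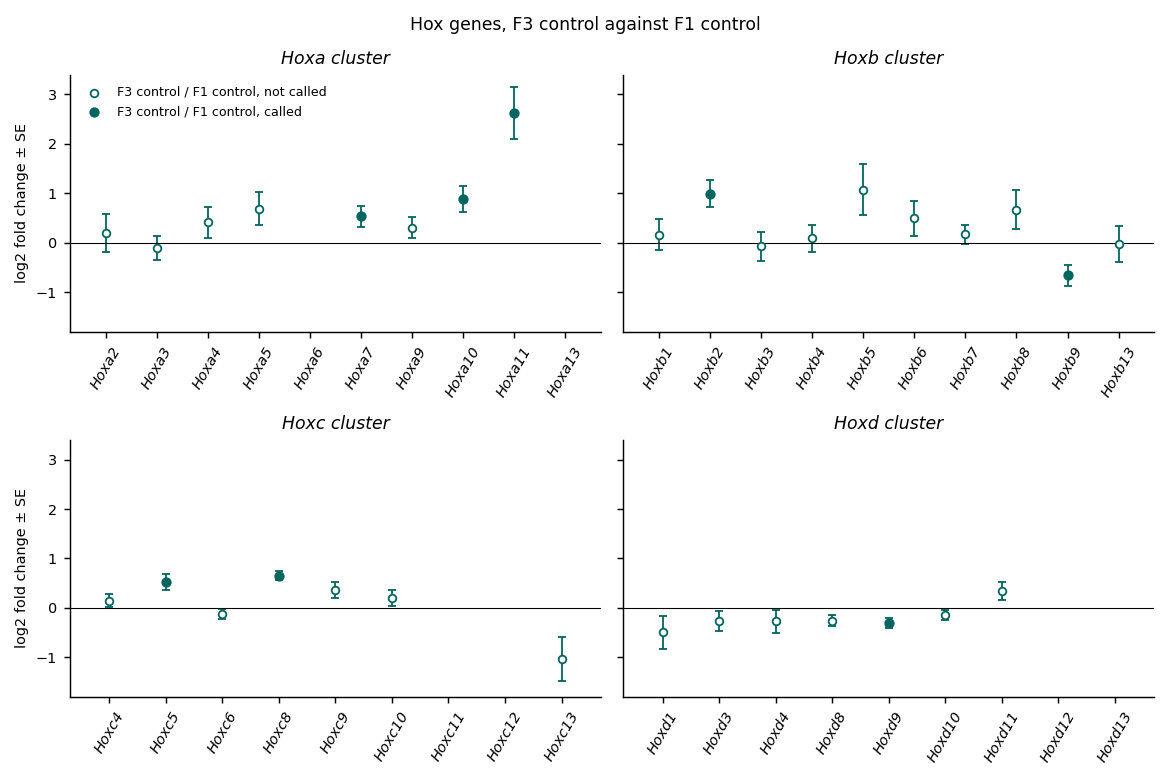
Log2 fold change of F3 control over F1 control with its standard error (edgeR) for the Hox genes tested, with a panel per cluster. Filled symbols are the 8 genes called at an FDR of 0.1, with *Hoxa11* at 2.62, and 6 of 7 Hoxd genes lie below 0.

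Several libraries departed from their group in sets of neighbouring genes. *Hoxa11os*, the antisense gene of *Hoxa11*, was at 0.124, 0.131 and 0 CPM in F1 control, 0.112, 0.570 and 0.152 in F1 *thia*, 0.775, 0.243 and 0.531 in F3 control and 0.341, 0.460 and 0.629 in F3 *thia*. It was highest where *Hoxa11* was highest, in F3 control replicate 1 and, within F1, in *thia* replicate 2. Exons of the pair overlap by 568 bases on opposite strands, and whether the counting used the strand is not stated in the sources used here, so their reads cannot be told apart. The skeletal muscle markers were high in F1 *thia* replicate 2 (502 CPM in sum) but at 90.3 CPM in F3 control replicate 1, where *Hoxa11* was highest, and the largest sum of F3 was 174 CPM in control replicate 3. The part of muscle in the *Hoxa11* values was not tested.

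*Hoxd3* was at 11.98, 11.4 and 12.5 CPM in F1 control, 12.2, 11.4 and 6.76 in F1 *thia*, 6.73, 12.6 and 10.2 in F3 control and 8.13, 11.7 and 12.2 in F3 *thia*. It was low in F1 *thia* replicate 3 and in F3 control replicate 1, the libraries in which *Hoxd4* was also lowest, at 8.43 and 9.52 CPM. *Hoxd3* and *Hoxd4* are neighbours whose transcripts share 388 bases of exon in GENCODE M21 when all transcripts are counted. *Hoxd8*, next to them, was not low in F1 *thia* replicate 3 (63.0 CPM). In F1 *thia* replicate 1, 23 of 35 members were above both other *thia* replicates, with *Hoxb6* furthest above. Other libraries departed as widely, since F1 control replicate 2 was the lowest of its group for 26 of 35 members and F1 *thia* replicate 3 for 25. The share of all genes that departed in this way was not computed. F1 *thia* replicate 1 also had the most *Cdh16* (5.48 CPM, against 0.352 to 3.01 in the others), *Lhx1* (0.805 against 0.0575 to 0.425) and *Wnt9b* (0.992 against 0 to 0.246) RNA, genes of mesonephric epithelium. The other listed markers of this epithelium were each highest in another library, such as *Pax2* (2.02 CPM here, 2.24 in F1 *thia* replicate 3). All 10 mesonephric markers summed to 69.2 CPM there and to 48.7 to 70.9 CPM in the other libraries, and the part of this epithelium in the Hox values was not tested. In F3 control replicate 3, *Hoxb5* (2.42 CPM), *Hoxa5* (7.01 CPM) and *Hoxb2* (5.23 CPM) were at their highest of all 12 libraries.

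**Figure D5:**
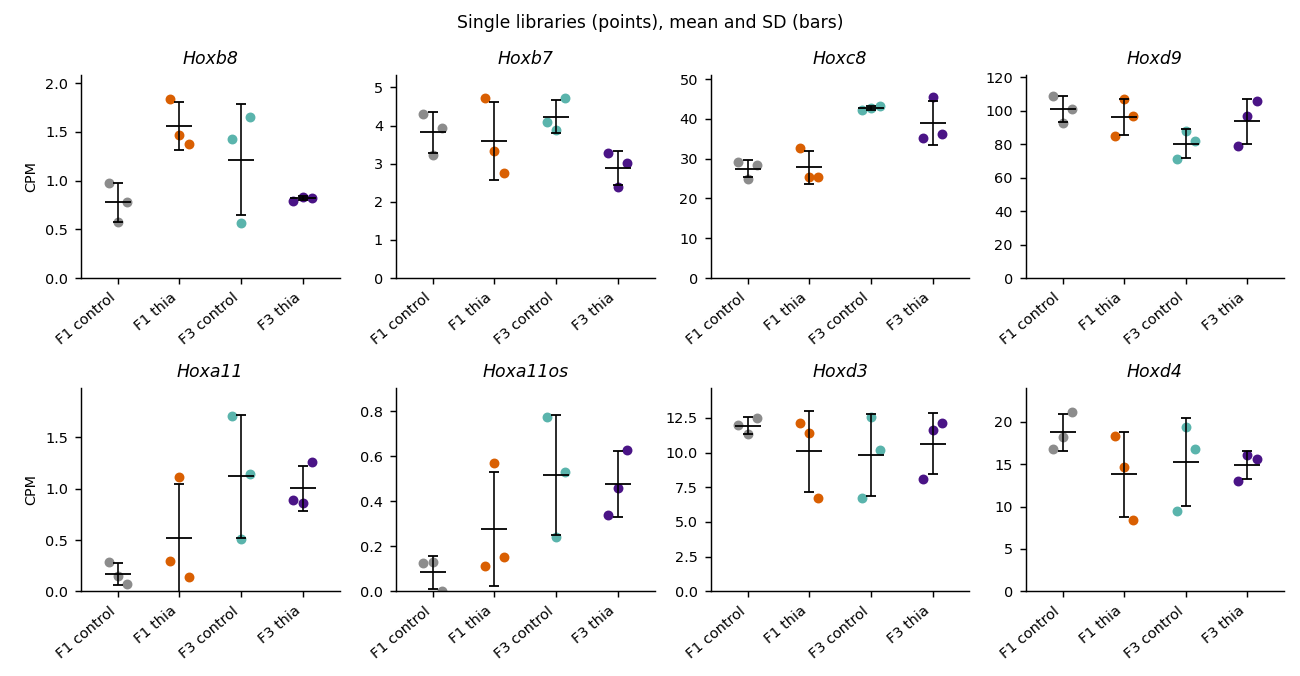
CPM of 7 Hox genes and *Hoxa11os* in each library (points, linear axes from 0), with the mean and SD (n = 3) of each group. *Hoxb8* of F1 *thia* lies above F1 control, *Hoxc8* is higher in all F3 libraries than in all F1 libraries, and single low libraries are seen in *Hoxd3* and *Hoxd4*.

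Of the RNA genes inside the clusters, 16 of 21 listed were in the files and 8 of them had under 10 counts in every library, among them *Hotair* and *Hottip*. None of the 5 or 6 tested was called in the *thia* comparisons. *Haglr*, a long noncoding RNA gene beside *Hoxd1*, had a log2FC of 0.45 in F1 (SE 0.24, FDR 0.604) and -0.23 in F3 (SE 0.21, FDR 0.565).

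Genes that act with or on Hox genes were taken from lists, and none was called in F1 or F3 by edgeR. At an unadjusted p under 0.05, 4.63% of all genes were higher and 4.13% lower in F1. In F3 these shares were 11.0% and 10.0%. All 9 cofactor genes of the PBX, MEIS and PKNOX families were expressed, with a summed level of 609.5 to 732 CPM, and 0 in F1 and 2 in F3 had an unadjusted p under 0.05, both higher. Of 30 Polycomb genes, 0 were higher and 3 lower in F1 and 2 higher and 5 lower in F3 at that p. The F1 genes were *Mtf2* (log2 fold change -0.35), *Ezh2* (-0.23) and *Pcgf6* (-0.26). In F3 the smallest p was that of *Rbbp4*, a histone-binding subunit of several chromatin complexes (log2FC -0.33, SE 0.07, FDR 0.105). Of 12 Trithorax genes and H3K27 demethylases, 0 were higher and 1 lower in F1, and 6 were higher and 1 lower in F3, among them *Kdm6b* (0.82, SE 0.23, FDR 0.126) and *Kmt2c* (0.61, SE 0.17, FDR 0.129). In control testis 8 of these 12 genes were called lower and 1 higher in F3 than in F1, against 21.9% and 21.3% of all genes. *Kmt2c* had a log2FC of -1.26 (SE 0.12, FDR 0.000232) there. *Kdm6b* and *Kmt2c* in F3 *thia* (48.2 ± 13.4 and 30.4 ± 6.14 CPM, SD, n = 3) thus lay between F3 control (27.3 ± 5.67 and 19.95 ± 2.67) and F1 control (57.5 ± 0.990 and 48.4 ± 4.80).

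Upstream of the Hox genes, 22 genes of retinoic acid signalling, Cdx genes and other regulators were listed, and 18 were tested in F1 and 19 in F3. At an unadjusted p under 0.05, 4 were higher and 0 lower in F1, where 4.63% of all genes were higher and 4.13% lower. At that p 2 were higher and 5 lower in F3, where the shares of all genes were 11.0% and 10.0%. In F1 the listed genes at that p included *Crabp1*, a retinoic acid binding protein gene (log2FC 0.35, SE 0.12, FDR 0.518), and *Cdx1*, a direct activator of Hox genes (0.55, SE 0.20, FDR 0.518). In F3 they included *Hmga2*, a chromatin protein gene (-0.54, SE 0.11, FDR 0.105) and *Aldh1a2*, which makes retinoic acid (-0.47, SE 0.10, FDR 0.105). *Aldh1a2* was at 231 ± 20.9 CPM in F3 control and 167 ± 17.2 CPM in F3 *thia* (SD, n = 3). Other homeobox genes of the urogenital ridge gave 1 higher and 3 lower in F1 and 3 higher and 2 lower in F3 of 16 and 15 tested at that p, and genes flanking the clusters 1 higher and 1 lower in F1 and 1 higher and 2 lower in F3 of 18.

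For the member with the smallest p in each generation, the genes with the most similar pattern were found by Pearson's r of log2 CPM over the 12 libraries, as a description over libraries that share groups. They were *Sstr2* (r = 0.836), *Dlx5* (0.828), *Ttc30a2* (0.826), *5730596B20Rik* (0.804) and *Adam7* (0.800) for *Hoxb8*, and *Gm30338* (0.870), *Gm33257* (0.869), *Gm31231* (0.861), *Ccdc163* (0.848) and *Gm3325* (0.848) for *Hoxb7*. None of these genes is a Hox gene.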

How the data were processed

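RNA was sequenced from 12 libraries of E15.5 testis, 3 per group, each from pooled testes of 3 embryos. The deposited values are raw counts per gene symbol, which the authors made from paired-end stranded reads with HISAT2 2.1.0 and featureCounts on mm10 with the UCSC refGene annotation (versions per the submitters' processing notes, which also name bcl2fastq 2.20.0.422 and DESeq2 2.11.40.7). The alignment was run for pairs with the strand set to reverse. For the counting step, whether reads or pairs were counted, whether strand was used and how reads matching several genes were treated are not given in the sources used here, so reads shared by close Hox paralogues are an uncertainty. Library totals had a range of 25081647 to 68996146, at which 3 counts, taken as the floor, equal 0.0435 to 0.120 CPM.

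The whole count table went into edgeR 4.0.16 under R 4.3.3 (filterByExpr, minimum count 10, TMM scaling, quasi-likelihood test, Benjamini-Hochberg adjustment over all genes tested), as a check with DESeq2 1.42.0, and in Python 3.11.15. The code was tested on simulated data. Log2 CPM used a prior count of 2. FDR thresholds were 0.15 in F1 and 0.1 elsewhere. Standard errors were derived from the test, and 95% intervals from them with the degrees of freedom of the test. Exon lengths are the union of RefSeq-linked exons in GENCODE M21. Alternatives were other scalings, filters, a replicate block, 12 libraries in 1 fit, an FDR of 0.05, CPM not divided by length and each library left out.

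The members and gene lists were chosen with earlier results of these data known. Values in every library are given for the 3 genes with the highest level per kb of each cluster, the 6 with the smallest p in each of 4 comparisons, and groups with members on both sides of the filter. A member was counted in all totals but is not reported here by name or in figures. Of each list at most 3 genes with the smallest p per comparison are named, with *Sox9*, *Amh*, *Ddx4*, *Cyp17a1* and *Pax2* as markers, and 5 genes most similar in pattern. *Cdh16*, *Lhx1*, *Wnt9b* and genes described for a single library were chosen after their values were seen.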

Additional observations from a re-analysis of the deposited data

How the results depend on the processing

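Among the 6 to 8 members with the smallest p in each comparison, none changed direction in any alternative. They were chosen by their p in these same data, which makes a reversal less likely, and the other members were not checked for it. The count of members called stayed at 0 in F1, in F3 and for the difference between them under every alternative with edgeR, and was 1 in F3 with DESeq2 (*Hoxb7*, adjusted p = 0.0908). At the same FDR thresholds, edgeR called 0 to 0.78% of all genes in F1 and 0 to 9.86% in F3 over these alternatives. For the difference it called 0 to 0.0198%. Between the control groups the count was 8, 7 to 10 under the other settings and 6 to 15 with 1 library left out (15 without F3 control replicate 2), and the cause was not tested. At an FDR of 0.1 the other edgeR settings called 23.3 to 30.3% of members, against 26.3 to 45.5% of all genes. With 1 library left out these shares were 17.1 to 44.1% and 33.6 to 40.6%. When CPM were not divided by length, the *Hoxc* share moved from 33.6 to 29.5% and the *Hoxd* share from 55.6 to 60.02%, because lengths differ between genes. Replicate numbers recur in the labels of all groups. Deviations of same-numbered libraries had correlations of -0.034 to 0.020 in F1, -0.420 to 0.228 in F3 and -0.072 to 0.102 between controls. With 3 pools per group this cannot exclude that same-numbered libraries shared a litter, treatment round or batch, which the labels do not give. With the replicate block 0 members were called in F1, F3 or the difference, and 9 between controls (27.3%, against 41.4% of all genes). At an unadjusted p under 0.05 there were 2 in F1 (6.06%, against 7.3%) and 4 in F3 (12.1%, against 18.5%), instead of 1 and 1. For the difference there was 1 (2.86%, against 11.4%), instead of 3. Depth limits the posterior genes most. *Hoxa13*, *Hoxc11*, *Hoxc12* and *Hoxd12* did not pass the low-count filter in any comparison, so edgeR with that filter did not test them.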
